A study of Xiphophorus maculatus with 32 samples.

Results

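DNAH7 is a heavy chain of axonemal dynein, and its transcript in the skin of the platyfish Xiphophorus maculatus was followed through every light exposure of the study. It was taken as row ENSXMAT00000007381, 1 of 20218 transcripts in the deposited table, which the study's probe panel names DNAH7. The row was picked for its rise after the wavebands from 350 to 500 nm, so its values in those 3 wavebands are a description and carry no test. RNA-Seq counts were available for 28 distinct libraries, each from the skin of 1 fish. All fish were mature males of the inbred line Jp 163 B, aged 10 to 11 months, and the results hold for that genotype and sex.

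Exposed fish were kept in the dark for 14 h, received 1 light exposure and were returned to the dark for 6 h before skin was taken. There were 12 exposures with 2 fish each, namely 4100 K fluorescent light (FL, a cool white lamp) at 35 kJ/m2, 6 wavebands of 50 nm between 300 and 600 nm, and 5 wavebands of 10 nm between 500 and 550 nm. The doses in the labels were 7.3 kJ/m2 for 300–350 nm and 18.6 kJ/m2 for 350–400 nm. They were 21.6 and 21.2 kJ/m2 for the next pair of wavebands, 17.4 kJ/m2 for 500–550 nm and 13.8 kJ/m2 for 550–600 nm. For the 10 nm wavebands the paper states doses close to that of 500–550 nm, which fell slightly with wavelength. Each experiment had 2 unexposed control fish, but the columns of the 4 FL controls hold the same values as the 2 libraries that are controls of the 50 nm wavebands, so those 2 served both. The methods describe the controls in 2 ways, once as fish sampled directly from the dark without handling and once as fish incubated like the exposed ones, so the handling of these controls is uncertain. Sham-treated fish were not analysed here.

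Axonemal dyneins are motors that sit in rows on the outer microtubule doublets of motile cilia and flagella. Each heavy chain hydrolyses ATP and walks along the neighbouring doublet, and the sliding of doublets against each other bends the cilium. In mammals DNAH7 belongs to the inner row of dynein arms, which shapes the beat, and it is best known from ciliated epithelia and sperm rather than from skin. Bulk RNA of skin pools all of its cell types, so fewer cells of a type and less RNA per cell cannot be told apart.

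DNAH7 was a scarce transcript. Libraries held from 12835091 to 41221463 counts, of which DNAH7 took between 51 and 230. Control fish 1 of the 50 nm experiment had 51 counts in 23144055, or 2.20 CPM (counts per 1000000 counts of the library) before scaling, with an exact 95% binomial interval of 1.64 to 2.90 that covers counting error only. All levels below are CPM after TMM scaling of library size. All 28 libraries had DNAH7 counts, and the row passed the filter on low counts in each experiment.

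Unexposed skin of the 50 nm experiment held the lowest level of DNAH7. Its 2 fish had 2.16 and 2.94 CPM, a mean of 2.55 ± 0.549 (SD, n = 2). Of the 12 fish given a 50 nm waveband, 11 lay above both of these controls, and the exception was fish 2 of 500–550 nm. The 11 include the fish of the wavebands from 350 to 500 nm, for which this place was favoured by the choice of the transcript. Both FL fish also lay above these controls. The 2 controls took part in the choice as well, which favours a low level in them. The place of the other 50 nm and FL fish above them is therefore not independent of the choice.

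After 300–350 nm, the ultraviolet end, the fish had 7.36 and 5.77 CPM. After 350–400 nm (ultraviolet A) they had 8.28 and 4.97 CPM. After 400–450 nm (violet to blue) they had 8.99 and 8.89 CPM. In these 3 wavebands every fish was above both controls, and the 2 fish agreed closely in the last and least in the second. After 450–500 nm (blue) the fish had 12.2 and 9.83 CPM, the highest mean of all exposures at 11.0 ± 1.69 CPM, or 4.32-fold the control mean. Past 500 nm the means of this experiment were lower. No reading is made of that drop, since the wavebands before it chose the transcript for their rise. The fish had 4.86 and 2.89 CPM after 500–550 nm (green), where 1 fish overlapped the controls, and 5.37 and 4.86 CPM after 550–600 nm, where both lay above them. The FL fish had 9.01 and 6.10 CPM, and both lay above the controls. The 2 fish of a waveband differed by a factor of 1.01 at 400–450 nm to 1.68 at 500–550 nm.

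**Figure D1:**
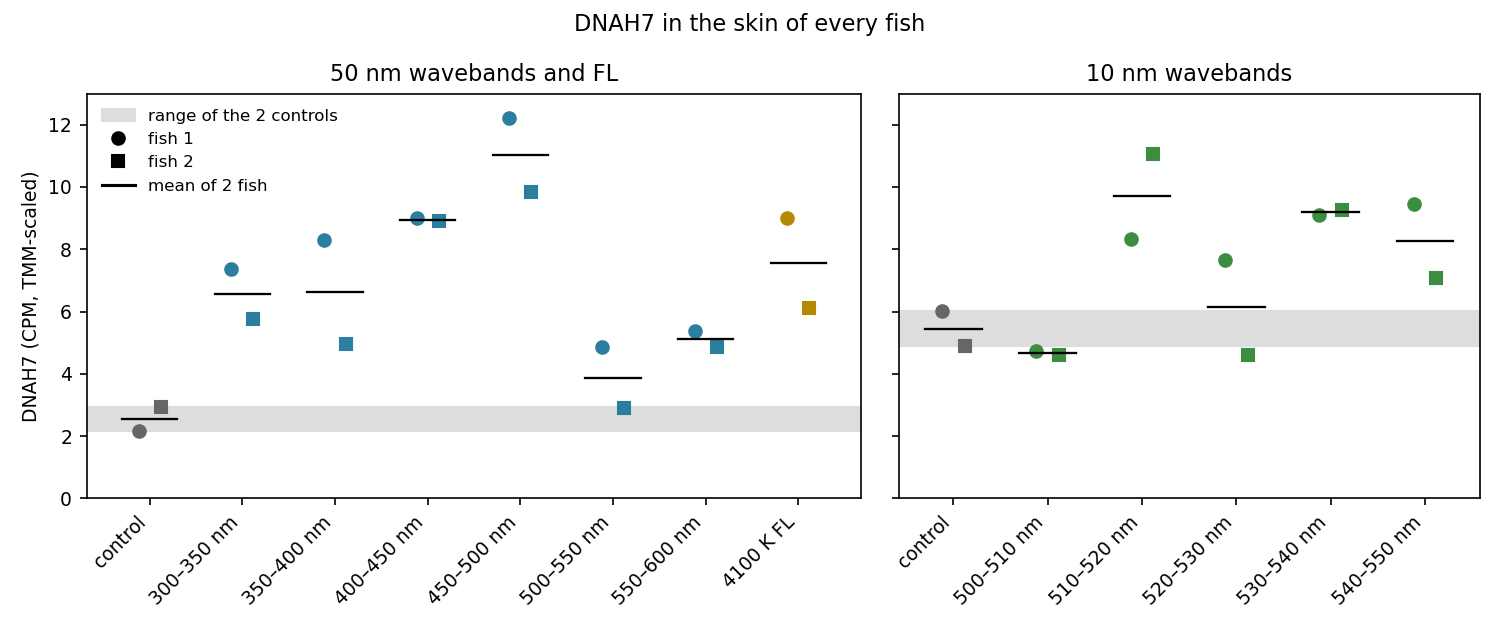
DNAH7 in each of the 28 fish, in CPM on a linear axis, with circles for fish 1, squares for fish 2, a black line for the mean of 2 fish and a grey band for the range of the 2 controls of that experiment. In the 50 nm and FL panel all but 1 exposed fish lie above the band from 2.16 to 2.94 CPM, whereas in the 10 nm panel the controls themselves lie at 6.0 and 4.90 CPM and 3 of 10 exposed fish lie below them.

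Ordered by mean level, the groups ran from the control (2.55 CPM) through 500–550 nm (3.87 CPM), 550–600 nm (5.12 CPM), 300–350 nm (6.56 CPM), 350–400 nm (6.62 CPM), FL (7.56 CPM) and 400–450 nm (8.94 CPM) to 450–500 nm (11.0 CPM). The means of 300–350 nm and 350–400 nm were 0.0609 CPM apart with a pooled SD of 1.84, and the fish overlapped there, between the control and 500–550 nm, between 350–400 nm and FL, and between FL and 400–450 nm. These 4 pairs of neighbours did not differ beyond their spread. Between 500–550 and 550–600 nm and between 550–600 and 300–350 nm the fish did not overlap, although in the first of these pairs the nearest fish both had 4.86 CPM, and neither pair passed the tests between wavebands given below. No reading is made of 450–500 nm over 400–450 nm, since both chose the transcript.

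In the 3 contrasts that chose the transcript, its log2 fold change over the controls was 1.34 (standard error 0.31) after 350–400 nm, 1.77 (standard error 0.31) after 400–450 nm and 2.08 (standard error 0.31) after 450–500 nm. Of 16722 genes tested, 1.26%, 0.795% and 0.957% were called up in these contrasts and 3.27%, 2.06% and 2.73% in either direction. A gene was called where its adjusted p was under 0.05 and its expression had moved by 1 or more on the log2 scale. Genes with a larger fold change made up 1.73%, 0.598% and 0.825% of those tested. Nothing is read from these shares, because the transcript was picked on the same values.

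The 300–350 nm fish were not used in picking the transcript, although their controls were. DNAH7 rose there by a log2 fold change of 1.34 (standard error 0.31, 95% interval 0.66 to 2.03), with both exposed fish above both controls (edgeR quasi-likelihood test, adjusted p = 0.0481). In this contrast 0.496% of genes were called up (0.975% in either direction), and 1.68% had a larger fold change. The call was close to the threshold. Leaving out any 1 of the 4 fish ended it, with fold changes of 1.13 (without control 1), 1.59 (without control 2), 1.15 (without exposed fish 1) and 1.51 (without exposed fish 2). Such fits leave 1 fish in a group, and fewer genes of any kind were called in them, so the loss is not particular to DNAH7. The call was also lost with no filter on low counts (adjusted p = 0.0523, edgeR), with scaling to the panel's housekeepers (adjusted p = 0.0999, edgeR) and with all 4 controls as the reference (adjusted p = 0.150, edgeR). It was kept by DESeq2 (adjusted p = 0.00384) and by edgeR's exact test (adjusted p = 0.000338). RLE size factors (adjusted p = 0.0470, edgeR) and 1 fit of all libraries (adjusted p = 0.0303, edgeR) also kept it.

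At longer wavelengths DNAH7 did not pass. After 500–550 nm its log2 fold change was 0.55 (standard error 0.32, 95% interval -0.15 to 1.25, edgeR adjusted p = 0.258), in a waveband where 1.99% of genes were called up and 4.69% in either direction. Fish 1 and fish 2 decided this value between them: it was 0.15 without fish 1 and 0.91 without fish 2. After 550–600 nm it was 0.98 (standard error 0.31, 95% interval 0.30 to 1.66, adjusted p = 0.0587 from the same test), just short of both thresholds, and 1.25% of genes were called up and 4.42% in either direction. The intervals of both wavebands include a doubling. These contrasts, FL and 300–350 nm share the 2 control libraries with the contrasts that chose the transcript, so a low level in these 2 fish raises all of them together.

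After FL, DNAH7 had a log2 fold change of 1.56 (standard error 0.33, 95% interval 0.75 to 2.38). It was not called by edgeR's quasi-likelihood test on these 4 libraries (adjusted p = 0.136), and neither was any other of the 16513 genes (0% called up, 2775 genes at an unadjusted p under 0.05, but 614 called by DESeq2 and 762 by edgeR's exact test). DNAH7 was among those called by DESeq2 (1.57, adjusted p = 0.00679) and by edgeR's exact test (1.56, adjusted p = 0.00340), and it was called in 1 fit of all libraries (1.56, adjusted p = 0.0122, edgeR). The 2 FL fish were both above the controls, and 0.836% of genes had a larger fold change. Without FL fish 1 the fold change was 1.25 and without FL fish 2 it was 1.81. Without 1 of the controls it was 1.36 and without the other 1.80. Such fits leave 1 fish in a group. DNAH7 was called when an FL fish was left out and not when a control was. More genes of any kind were called without an FL fish than in the main fit, so that call is not particular to DNAH7. The adjusted p ranged from 0.00340 to 0.780 over all alternatives run for FL.

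**Figure D2:**
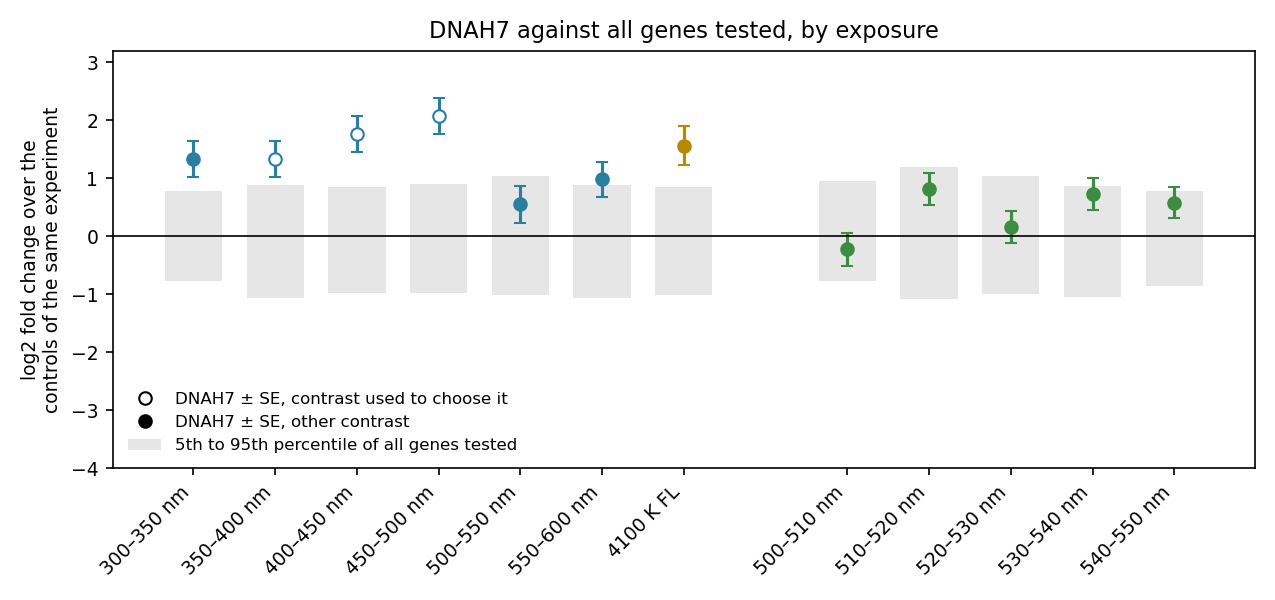
Log2 fold change of DNAH7 over the 2 controls of the same experiment, with its standard error as a bar, and in grey the 5th to 95th percentile of all genes tested for that exposure. Open circles mark the 3 contrasts that chose the transcript; after 300–350 nm (1.34), 550–600 nm (0.98) and FL (1.56) the filled circles lie above the grey range, and all 10 nm wavebands lie inside it.

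Wavebands can also be set against each other, which leaves the controls out of the difference. The controls and the wavebands that chose the transcript stay in the fit that gives the standard errors and tests. DNAH7 was lower after 500–550 nm than after 300–350 nm in both fish, by -0.79 on the log2 scale (standard error 0.31, 95% interval -1.47 to -0.11), but the difference did not pass over all genes (adjusted p = 0.211, edgeR's quasi-likelihood test; 0.239% of genes were called up and 1.02% in either direction). Between 550–600 nm and 300–350 nm it was -0.36 (standard error 0.30, 95% interval -1.02 to 0.30, adjusted p = 0.591, same edgeR test; 0.0658% called up and 0.885% in either direction). Between 500–550 nm and 550–600 nm it was -0.43 (standard error 0.31, 95% interval -1.11 to 0.25, adjusted p = 0.676, same edgeR test). In that last pair 0% of genes were called, 1432 had an unadjusted p under 0.05, DESeq2 called 19 and edgeR's exact test 37. The wavebands of 400–450 and 450–500 nm were not set against these, since they chose the transcript.

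Dose differed between wavebands. The highest doses among the 50 nm wavebands, 21.6 and 21.2 kJ/m2, went with the highest means, 8.94 and 11.0 CPM. Both of these wavebands took part in choosing the transcript, so nothing is read from that. The lowest dose, 7.3 kJ/m2 at 300–350 nm, went with 6.56 CPM, above the 3.87 CPM of 500–550 nm at 17.4 kJ/m2 and the 5.12 CPM of 550–600 nm at 13.8 kJ/m2. FL had the highest dose, 35 kJ/m2, and a mean of 7.56 CPM. Each waveband was given at 1 dose, so wavelength and dose cannot be told apart.

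**Figure D3:**
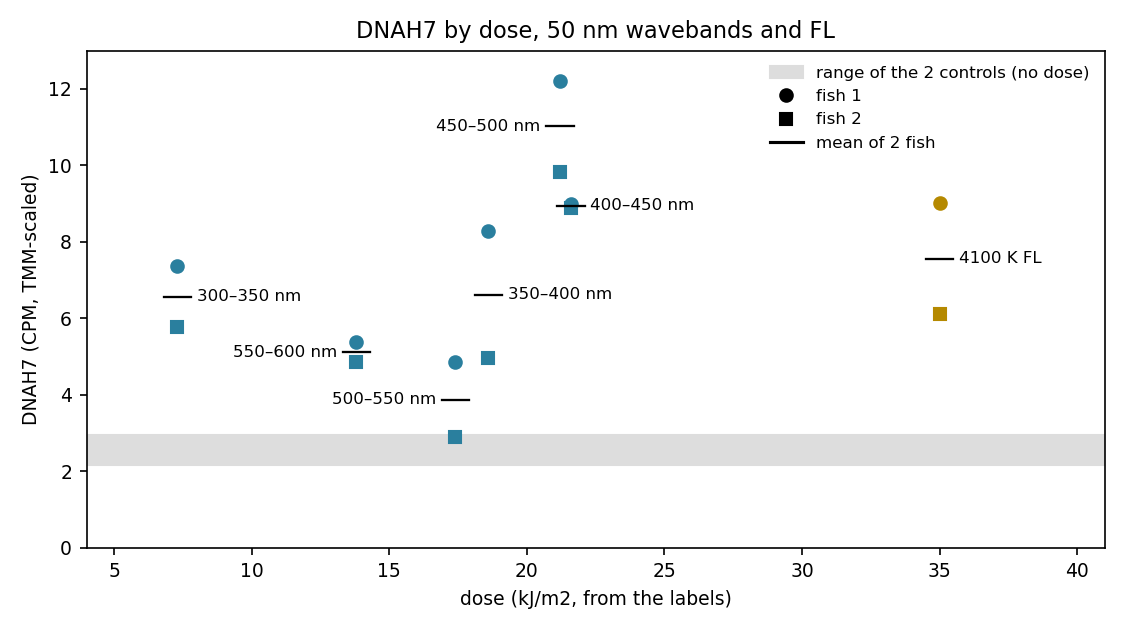
DNAH7 in CPM against the dose in kJ/m2 given in the labels, for the 6 wavebands of 50 nm and FL, with circles for fish 1, squares for fish 2, a line for the mean of 2 fish and a grey band for the 2 controls. The 300–350 nm fish at 7.3 kJ/m2 lie at 7.36 and 5.77 CPM, above both groups given 13.8 and 17.4 kJ/m2.

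The 10 nm wavebands divide 500–550 nm further and used other fish and other controls, none of which took part in picking the transcript. Here the controls had 6.0 and 4.90 CPM. After 500–510 nm the fish had 4.74 and 4.62 CPM, both below the controls. After 510–520 nm they had 8.34 and 11.1 CPM, both above them. The 2 adjoining wavebands therefore lay on opposite sides of the controls. After 520–530 nm the fish had 7.65 and 4.62 CPM, 1 above and 1 below both controls. After 530–540 nm they had 9.09 and 9.27 CPM and after 540–550 nm 9.45 and 7.06 CPM, all above both controls. In all, 7 of 10 exposed fish were above both controls and 3 of 10 below both.

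Ordered by mean, 500–510 nm (4.68 ± 0.0890 CPM, SD, n = 2) was lowest, then the control (5.45 ± 0.782 CPM), 520–530 nm (6.14 ± 2.15 CPM), 540–550 nm (8.26 ± 1.69 CPM), 530–540 nm (9.18 ± 0.130 CPM) and 510–520 nm (9.71 ± 1.93 CPM). The fish of neighbouring groups in this order overlapped except between 500–510 nm and the control, whose means were 0.772 CPM apart, and that difference did not pass its test either.

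DNAH7 did not pass in any 10 nm waveband with edgeR's quasi-likelihood test. Its log2 fold change was -0.22 after 500–510 nm (95% interval -0.85 to 0.40, adjusted p = 0.712) and 0.82 after 510–520 nm (0.20 to 1.44, adjusted p = 0.114). It was 0.16 after 520–530 nm (-0.46 to 0.79, adjusted p = 0.745). It was 0.74 after 530–540 nm (0.12 to 1.35, adjusted p = 0.290) and 0.58 after 540–550 nm (-0.03 to 1.20, adjusted p = 0.393). Standard errors were 0.27 to 0.28. At 520–530 nm the value turned to -0.26 without fish 1 and was 0.49 without fish 2. Few genes of any kind passed in this experiment: 0% were called in each of the first 4 wavebands and 0.00611% in the last, while 2141 to 4705 of the 16366 genes had an unadjusted p under 0.05. DESeq2 called 108 to 1023 genes a waveband and edgeR's exact test 209 to 1211. Neither tool called DNAH7 in any of the 5, since each value stayed under the fold threshold, although DESeq2 gave an adjusted p of 0.0493 after 510–520 nm (log2 fold change 0.85) and edgeR's exact test one of 0.00539 after 530–540 nm (0.78). The paper, in contrast, lists DNAH7 by its human symbol among the genes it found modulated after 530–540 nm, with thresholds of the same size. Whether its entry is this transcript is not stated there.

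The mean of the 5 wavebands against the 2 controls was 0.41 on the log2 scale (standard error 0.22, 95% interval -0.08 to 0.91), not passing edgeR's test (adjusted p = 0.242), in a contrast where 0.0122% of genes were called up and 0.0244% in either direction. Leaving out control 1 gave 0.55 and leaving out control 2 gave 0.28. An exact two-sided permutation test of the 10 exposed fish against the 2 controls gave p = 0.303 over 66 arrangements, of which the smallest possible p is 0.0152. For the 500 to 550 nm range the log2 fold change was thus 0.55 in one experiment and 0.41 in the other, and neither passed. Their difference was 0.15 (standard error 0.39, 95% interval -0.68 to 0.98, adjusted p = 0.825 from edgeR's test of the interaction), where 3.76% of genes were called up and 8.87% in either direction. Without fish 1 of 500–550 nm the sign of this difference turned (-0.26), and without control 1 of the 50 nm experiment it was -0.05. The 50 nm controls took part in picking the transcript, so neither the 0.55 nor this difference is independent of the choice.

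The unexposed fish of the 2 experiments differed in DNAH7. The controls of the 10 nm experiment had 6.0 and 4.90 CPM against 2.16 and 2.94 CPM in the 50 nm experiment, a 2.14-fold difference in which the fish did not overlap. The log2 difference was 1.08 (standard error 0.31, 95% interval 0.43 to 1.74), which edgeR's test called (adjusted p = 0.0203). In this contrast 3.58% of genes were called up and 9.13% in either direction. The call was lost when any 1 of the 4 control fish was left out: the difference was 0.88 and 1.32 without fish 1 and fish 2 of the 50 nm controls, 0.97 and 1.23 without fish 1 and fish 2 of the 10 nm controls, with adjusted p from 0.0532 to 0.146 in edgeR's test. The 50 nm controls took part in picking the transcript, which favours a row that is low in these 2 fish, so this test is not independent of the choice. Experiment and control group cannot be told apart.

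The level of the reference therefore entered every fold change. Of the 24 exposed fish, 20 lay above both of their own controls and 15 above all 4 controls. Among the 14 fish of the 50 nm and FL exposures the counts were 13 and 8. All these counts include the fish of the wavebands from 350 to 500 nm, whose place above their own controls was favoured by the choice of the transcript. A low level of the 50 nm controls was favoured by it too. The place of the other 50 nm and FL fish above their own controls is thus not independent of the choice. With the mean of all 4 controls as the reference, a setting added once the data had been seen, the log2 fold change of the 50 nm and FL exposures was smaller. It was 0.82, 0.83, 1.26, 1.56, 0.05 and 0.45 for the 50 nm wavebands in order of wavelength, and 1.02 for FL. The 300–350 nm call was then lost (adjusted p = 0.150, edgeR) and FL passed (adjusted p = 0.0174, edgeR). In the 10 nm experiment it went up to 1.38 after 510–520 nm (adjusted p = 0.00776, edgeR) and 1.30 after 530–540 nm (adjusted p = 0.0272, edgeR), which then passed. It turned to 0.33 after 500–510 nm. For the mean of the 5 wavebands it was 0.98 (adjusted p = 0.00447, edgeR), under the fold threshold. This reference includes the 50 nm controls, whose low level was favoured by the choice of the transcript. Passing against all 4 controls is therefore not independent of that choice.

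**Figure D4:**
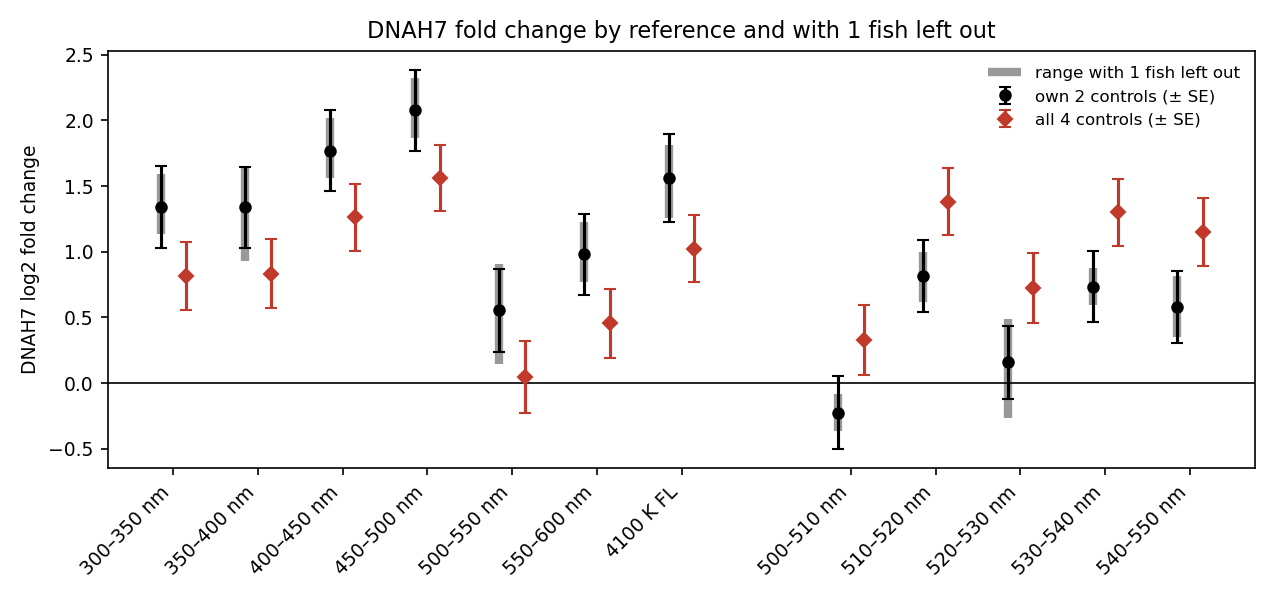
Log2 fold change of DNAH7 for each exposure, with black circles for its own 2 controls, red diamonds for all 4 controls (bars are standard errors) and a grey bar for the range of values when 1 fish is left out. The red diamonds lie below the black circles for the 50 nm wavebands and FL (1.56 against 2.08 after 450–500 nm) and above them for the 10 nm wavebands (1.38 against 0.82 after 510–520 nm).

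DNAH7 could not be set beside the rest of the ciliary machinery. Of 62 genes listed for motile cilia, such as other dynein chains, assembly factors, radial spoke proteins and FOXJ1, DNAH7 was the 1 with a named transcript. The RefSeq table for the species holds symbols for 47 of them, including 8 dynein heavy chains, but pairs 0 of its genes with Ensembl transcripts. The counting tool is spelled xEpress in the methods, and its settings and its treatment of reads shared by related dynein genes are not given there, so the count of DNAH7 may hold reads of a relative. Of 42 markers of skin cell types, 1 had a named transcript, MYL2B of muscle, which had 64.9 to 101 CPM in the controls and 43.4 to 118 CPM in the exposed fish of the 50 nm experiment. Markers of ciliated cells had no named transcript, so the cells that carried DNAH7 were not identified, and the part of cell composition in its changes was not tested.

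Of 20 genes listed for cytoplasmic dynein and microtubules, 3 had a named transcript, and 0 of these 3 were called in any of the 12 exposures by edgeR's quasi-likelihood test, with 9 of 36 tests at an unadjusted p under 0.05, near the 23.1% of all tests of all genes over these exposures. Over all genes, 1.53% of these quasi-likelihood tests were called. Calls depended on the tool. DESeq2 called 5 of the 30 tests to which it gave an adjusted p, and edgeR's exact test called 9 of the 36. All of these calls were for NUMA1 or SYBU. Over all genes DESeq2 called 108 to 1023 an exposure and the exact test 209 to 1299, where the quasi-likelihood test covered 16366 to 16722 genes. The 36 tests cover only 3 transcripts and share controls, so nothing is read from the calls in this list. NUMA1, which tethers cytoplasmic dynein at the spindle poles, had 23.8 and 36.6 CPM in the 50 nm controls. Its log2 fold change after 400–450 nm was -1.83 (standard error 0.49, adjusted p = 0.0537 by edgeR's quasi-likelihood test, 0.00345 by DESeq2). The microtubule-associated protein MTCL1 had 0.50 (adjusted p = 0.592, edgeR) in the same waveband. SYBU, which is also microtubule-associated, had 0.09 there (adjusted p = 0.920, edgeR). In the 10 nm experiment SYBU had 0.979 and 1.75 CPM in the controls and 2.43 to 12.8 CPM in the 10 exposed fish. Its log2 fold change there was 1.15 to 2.43, with adjusted p of 0.102 to 0.489 by edgeR's quasi-likelihood test, and DESeq2 called it after 510–520 nm (adjusted p = 0.0117).

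Named transcripts were ranked by the likeness of their pattern to that of DNAH7, as Pearson's r of log2 CPM over the 28 libraries, each centred on its experiment. The r is a description: libraries of an experiment share controls and handling, and the wavebands that chose DNAH7 are among them. Over 15379 other transcripts the median r was 0.000636, with a 5th to 95th percentile range of -0.42 to 0.45. Of the 73 named ones, CRY2A (a cryptochrome, a family of light-sensitive and circadian clock proteins) had the highest r, 0.60, and ranked 89 among all those compared. GNA15, an alpha subunit of Gq-type G proteins, had 0.50. CUL4B, a scaffold of ubiquitin ligases, followed at 0.45 and HMOX1, which breaks down heme under oxidative stress, at 0.44.

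For CRY2A the likeness lay in the 50 nm and FL libraries (r = 0.73, 16 libraries) more than in the 10 nm libraries (r = 0.15, 12 libraries). CRY2A had 15.5 and 17.6 CPM in the 50 nm controls and 46.0 and 64.9 CPM after 300–350 nm, a log2 fold change of 1.72 (standard error 0.18). Its 10 nm controls were also higher, at 29.5 and 37.9 CPM, and the log2 difference between the 2 sets of controls was 1.02 (standard error 0.30), close to the 1.08 of DNAH7. This is a description, since CRY2A was ranked by its likeness to DNAH7 over these same libraries. Unlike DNAH7, CRY2A had its highest 50 nm mean after 300–350 nm (55.4 CPM) and not after 450–500 nm (42.2 CPM). Without the 3 wavebands that chose DNAH7, r was 0.64 for CRY2A, 0.48 for GNA15, 0.18 for CUL4B and 0.33 for HMOX1. The 50 nm controls, which also took part in the choice, remain in these values. They had the lowest group means of DNAH7 and CRY2A in that experiment, so these r are not independent of the choice.

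HMOX1 had about the same r in both experiments, 0.46, but its fish varied widely: after 350–400 nm they had 9.25 and 87.7 CPM against 12.1 and 13.9 CPM in the controls. The lowest r belonged to 3 genes with roles in cell division or nuclear import. NUMA1 had -0.52, the nuclear import receptor KPNA2 had -0.52, and ECT2, an exchange factor that starts cytokinesis, had -0.47. KPNA2 had 146 and 221 CPM in the 50 nm controls and 44.0 and 46.5 CPM after 450–500 nm, and its fish did not overlap there. Its log2 fold change in that waveband was -2.05 (standard error 0.52). In the 10 nm controls KPNA2 had 51.2 and 58.7 CPM, -1.74 on the log2 scale against the 50 nm controls (standard error 0.48). The 50 nm controls were low in DNAH7 and CRY2A and high in KPNA2 relative to the unexposed fish of the other experiment. CRY2A and KPNA2 were ranked by their likeness to DNAH7 over these same libraries, so their values are a description and carry no test.

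**Figure D5:**
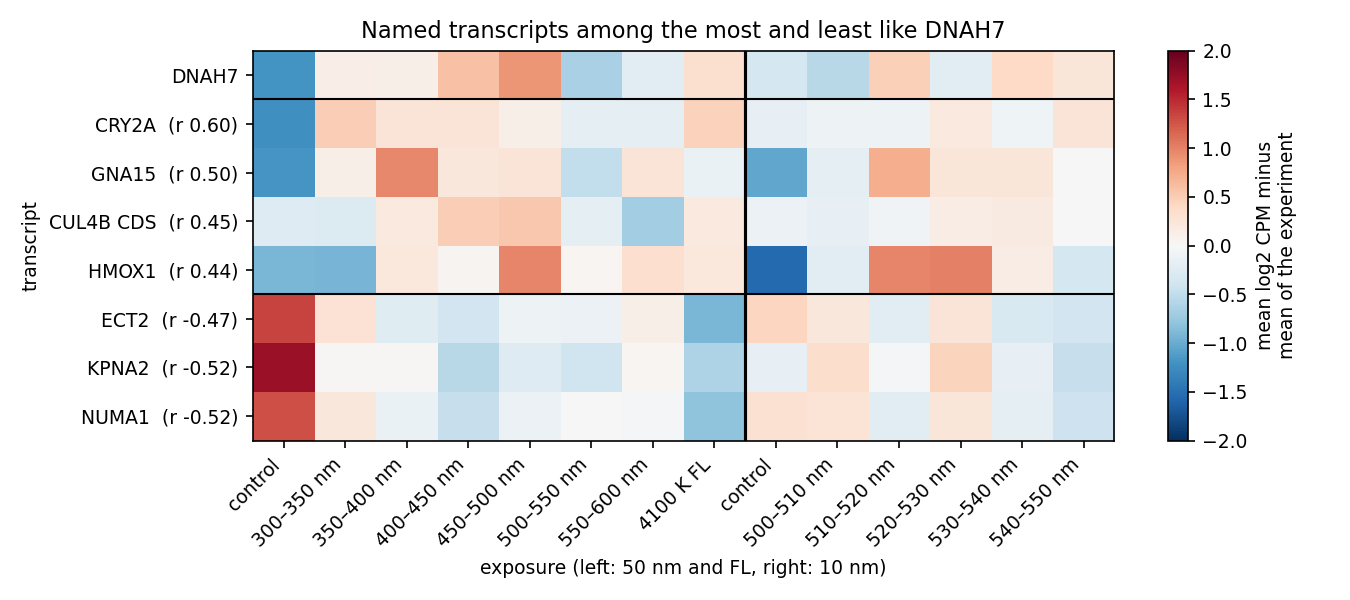
Mean log2 CPM of DNAH7, 4 of the 5 named transcripts most like it and the 3 least like it, each minus its mean over the experiment, by exposure (left of the line the 50 nm and FL experiment, right of it the 10 nm experiment; red above and blue below the mean). The 50 nm control column is blue for DNAH7 and the 4 transcripts below it and red for ECT2, KPNA2 and NUMA1.

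Within the study's panel of probe targets, the place of DNAH7 varied with the exposure. Its place after 350–400, 400–450 and 450–500 nm was set by the choice of the transcript and is given as a description. The paper describes a larger panel of genes selected as light responsive, and only the 53 targets named here were ranked. The fold changes are from edgeR, and 51 targets besides DNAH7 could be tested in the 50 nm experiment. After 300–350 nm, 3 targets had a larger log2 fold change (KLHL38 and CRY2A among them), and after 400–450 and 450–500 nm 2 did (KLHL38 among them). After 350–400 nm 7 did, after 550–600 nm 9 and after 500–550 nm 18. In the 10 nm experiment 52 targets could be tested, and between 10 (after 540–550 nm) and 29 (after 500–510 nm) lay above DNAH7. The median log2 fold change of the panel's 10 housekeepers was -0.14 to -0.02 in the 50 nm wavebands, though 1 of them, ENSXMAT00000020266, was called up in all 6 (edgeR). It had 1.61 and 2.38 CPM in the controls and 5.48 to 52.3 CPM in the exposed fish of those wavebands.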

How the data were processed

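RNA-Seq was performed on skin from 24 exposed and 4 distinct control fish. The authors filtered the reads, aligned them to Ensembl cDNA by means of GSNAP, counted them with a tool spelled xEpress in the methods, and deposited the raw counts of each transcript. Versions, the Ensembl release, strand and the handling of reads with several matches are not given in the sources used here. The table has 32 columns, of which 28 are distinct, and identical columns were counted once. Library totals ranged from 12835091 to 41221463 (median 16067180). Of the 12 libraries of 50 nm wavebands, 11 held fewer counts than both controls. All counts were used as deposited.

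The 50 nm, FL and 10 nm experiments were fitted separately in R 4.3.3 with edgeR 4.0.16 (filterByExpr, TMM, quasi-likelihood test, Benjamini-Hochberg adjustment over all genes tested). The difference between the controls and that between the effects of the experiments came from 1 fit of all libraries. The thresholds for a call were an adjusted p of 0.05 and a log2 change of 1 in either direction. The fold change over the root of its F statistic gave the standard error. CPM values were scaled by TMM over all 28 libraries, and log2 CPM used a prior count of 2. With 2 fish a group, the p-values rest on the spread between fish pooled over the groups of a fit. The scripts were tested on simulated data.

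DNAH7 and the gene lists were chosen with earlier results of these data known. Other genes were named by rule: the 5 named transcripts with the highest and the 3 with the lowest Pearson's r with DNAH7 among those averaging 1 CPM or more, and the members of the lists; 1 of the 5 is not reported here. KLHL38 and ENSXMAT00000020266 were chosen after their values were seen. Names came from the identifiers of the study's panel (63 names, read from page images) and from rows that carry a name. No sequence is shown, since none of the sources used here held one for this transcript. Replicate numbers join different fish, and the differences between fish 1 and fish 2 of an exposure and of its controls correlated at -0.24 to 0.09 across genes, so no block was used except as an alternative. Alternatives were DESeq2 1.42.0, edgeR's exact test, RLE size factors, no filter on low counts, the block, 1 fit of all libraries and leaving out each fish. All 4 controls as reference, scaling to the 10 housekeepers, crossed FL numbers and a 10 nm fit without the 510–520 nm fish were added after the data were seen. Figures were drawn with matplotlib 3.10.9.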

Additional observations from a re-analysis of the deposited data

How the results depend on the processing

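With 2 fish a group, no library can be set aside as the odd one, and 51 to 230 counts a library limit the precision for DNAH7. The 300–350 nm rise lost its call with no filter on low counts (1.34), with scaling to the housekeepers (1.23), with all 4 controls as reference (0.82) and with each fish left out (1.13 to 1.59). The difference between the 10 nm and the 50 nm controls lost it with the replicate number as a block (0.99), with housekeeper scaling (0.95) and with each control left out (0.88 to 1.32). The FL rise gained it with 1 fit of all libraries (1.56), DESeq2 (1.57), edgeR's exact test (1.56), all 4 controls (1.02) and without either FL fish (1.25 to 1.81). The fits without an FL fish leave 1 exposed fish and called more genes of any kind than the main fit. With all 4 controls, 350–400 nm moved to 0.83, 400–450 nm to 1.26 and 450–500 nm to 1.56, 510–520 nm (1.38) and 530–540 nm (1.30) passed, and 500–510 nm turned to 0.33. That reference includes the 50 nm controls, which took part in picking the transcript. With 1 fish left out, 400–450 nm ranged from 1.56 to 2.01, 520–530 nm from -0.26 to 0.49, and the 500–550 nm effect minus the mean 10 nm effect from -0.26 to 0.49, the last also turning to -0.20 with housekeeper scaling. That scaling used all 10 housekeepers, among them ENSXMAT00000020266, which was itself called up in all 6 of the 50 nm wavebands. In all, 13 values lost the call, 8 gained it and 5 changed sign without passing. A further 4 moved in the contrasts that chose the transcript, which carry no test. The other 204 were labelled unchanged, some of them in those same untested contrasts, where there was no call to keep. The causes of the changes were not tested. With the replicate block the 300–350 nm value was 1.31 (adjusted p = 0.0470, edgeR) and that of FL 1.55, and the block changed no DNAH7 call but that between the controls. With the FL numbers crossed, 358 genes were called after FL, but not DNAH7. The number of genes called depended far more on the setting. Over all alternatives it ran from 4 to 593 after 300–350 nm (main value 163), 22 to 1149 after 350–400 nm (547), 6 to 865 after 400–450 nm (345), 27 to 864 after 450–500 nm (457), 212 to 1450 after 500–550 nm (785) and 85 to 1049 after 550–600 nm (739). It ran from 0 to 2564 after FL, 0 to 907, 0 to 3546, 0 to 615, 0 to 1211 and 0 to 768 in the 10 nm wavebands in order of wavelength, and 0 to 1115 for their mean. Between the controls it ran from 644 to 2234 (1541), for the difference of effects from 508 to 2048 (1497), and between wavebands from 8 to 435 (500–550 against 300–350 nm, 170), 7 to 243 (550–600 against 300–350 nm, 148) and 0 to 37 (500–550 against 550–600 nm, 0).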

Other observations

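The transcripts whose pattern lay closest to that of DNAH7 carry no name in the sources used here. ENSXMAT00000011519 had r = 0.77 over the 28 libraries (0.83 in the 50 nm and FL libraries, 0.54 in the 10 nm libraries), and ENSXMAT00000018848 had r = 0.72 (0.83 and 0.35). The most opposed were ENSXMAT00000007446, with r = -0.79 (-0.90 and -0.53), and ENSXMAT00000007750, with r = -0.76 (-0.77 and -0.76). These are descriptions over libraries that share controls and handling. The deepest library, fish 2 of 550–600 nm with 41221463 counts, gave 4.86 CPM of DNAH7, and the other fish of that waveband, with 16016452 counts, gave 5.37 CPM.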
